A study of Mus musculus with 6 samples.

Results

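The 10 genes described here encode Kruppel-like factors: Klf2, Klf3, Klf4, Klf6, Klf7, Klf9, Klf10, Klf11, Klf13 and Klf16. They were taken by symbol from a deposited expression table of 13008 genes, and all 10 were present. The list was selected on measured values of the same table, the Control against Cripto KO comparison being known when it was drawn up, so what follows describes their levels and is no independent evidence for any of them. The table holds 6 RNA-seq libraries of macrophages sorted from skeletal muscle of C57BL/6J mice aged 3 months and labelled male, 5 days after cardiotoxin injury, a snake toxin that kills muscle fibers and starts regeneration. The 3 Control libraries are labelled wild type, although the study describes its GFP-Control animals as Tg:LysMCre::R26mTmG. The 3 Cripto KO libraries are labelled Tg:LysMCre::Cripto-/-, although the study describes the animals sorted for RNA-seq as Tg:LysMCre::R26mTmG::Cripto fl/fl. In these mice a Cre driven by the LysM (Lyz2) gene removes the signaling co-receptor Cripto from the myeloid lineage. The sort gate was GFP+, F4/80+ and Ly6C-low, GFP being the reporter of Cre activity. This gate is taken from the paper, which also calls each library a biological replicate. The paper reports that the deletion was not complete, and that it was higher in GFP+ cells than in all macrophages. The Cripto transcript was not analysed here, so the genotype labels were not checked against it.

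Kruppel-like factors are transcription factors that bind CACCC and GC-rich elements through 3 zinc fingers at the C terminus, while their N termini recruit different partners. Klf2, Klf4, Klf6 and Klf7 belong to the group that mostly activates transcription with acetyltransferases such as p300, Klf3 recruits the corepressor CtBP, and Klf9, Klf10, Klf11, Klf13 and Klf16 bind the corepressor Sin3. In macrophages Klf2 and Klf4 are known as restraints on NF-kB-driven inflammatory genes, Klf4 promotes the alternatively activated state and monocyte differentiation, and Klf6 promotes inflammatory gene expression.

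The promoters of Klf2, Klf4 and Klf6 are shown because these genes had the highest levels per length of the family in these cells. Each is the 250 bases before the RefSeq start site (GRCm38.p6), written 5′ to 3′ on the gene's strand. Capitals mark matches on either strand to the CACCC-type Kruppel-like site CCNCNCCC and, in Klf2 alone, also the MEF2 site. The positions are chr8:72318812-72319061 (plus strand) for Klf2, chr4:55532476-55532725 (minus strand) for Klf4 and chr13:5861239-5861488 (plus strand) for Klf6.
Klf2: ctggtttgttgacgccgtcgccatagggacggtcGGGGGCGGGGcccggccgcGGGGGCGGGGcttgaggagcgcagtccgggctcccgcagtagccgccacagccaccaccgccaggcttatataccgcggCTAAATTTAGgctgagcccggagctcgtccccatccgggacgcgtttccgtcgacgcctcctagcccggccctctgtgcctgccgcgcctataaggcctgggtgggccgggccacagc
Klf4: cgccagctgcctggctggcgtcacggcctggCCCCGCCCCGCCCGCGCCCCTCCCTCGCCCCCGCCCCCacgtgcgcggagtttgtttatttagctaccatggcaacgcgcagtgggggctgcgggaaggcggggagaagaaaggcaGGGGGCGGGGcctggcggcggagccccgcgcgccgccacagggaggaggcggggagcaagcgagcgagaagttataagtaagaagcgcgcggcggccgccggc
Klf6: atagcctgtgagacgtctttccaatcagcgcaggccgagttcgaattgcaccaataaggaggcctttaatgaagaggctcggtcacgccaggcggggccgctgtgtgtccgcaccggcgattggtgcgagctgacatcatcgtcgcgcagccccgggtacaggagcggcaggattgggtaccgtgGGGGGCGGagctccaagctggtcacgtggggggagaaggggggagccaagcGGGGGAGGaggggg

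Klf4 held 9 overlapping matches to CCNCNCCC, Klf2 held 4 and Klf6 held 2. GGGCGG, the GC box, overlaps this motif in all 3 windows. CCNCNCCC occurred in 45.9% of the 32851 RefSeq promoter windows searched the same way, and in 7 of the 8 members that had a promoter entry, Klf9 being the exception. The MEF2 match of Klf2 starts at position -118, and the Klf2 promoter is known to respond to MEF2 proteins downstream of the kinase ERK5. A MEF2 match was present in 2.92% of all windows and in none of the other 7 members searched. Klf6 had 4 CCAAT boxes, a motif found in 33.8% of windows, and Klf9 had 3, together with 1 AP-1 match (TGANTCA, 6.75% of windows). No window of the 8 held the CRE TGACGTCA. These are matches of letters and say nothing of binding.

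Values are given on the deposited scale, reads per 1000000 of a normalized library size, with 0.5 read added to each count. The libraries held 12688968 to 14141773 reads in Control and 14633880 to 15659847 in Cripto KO, and 3 reads correspond to 0.222 to 0.286 on this scale. A pair of Control libraries stood apart. Control 1 had an Xist value of 171, against 0.114 to 0.885 in the other 5, which goes against its male label. Control 2 had a Lyz2 value of 11066, against 21.2 to 28.3 in the other 5, and Lyz2 is the gene into which the Cre of LysMCre mice is inserted. For Klf2, Klf3, Klf4, Klf6, Klf7, Klf10 and Klf11 the log2 difference is also given without Control 1, and for all of these but Klf3 also without Control 2. Other results use all libraries unless a left-out library is named. Macrophage markers, all 10 of them present, summed to 17589 to 18049 in Control and 16615 to 18118 in Cripto KO. In bulk RNA of this kind, fewer cells of a type and less RNA per cell cannot be told apart.

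**Figure D1:**
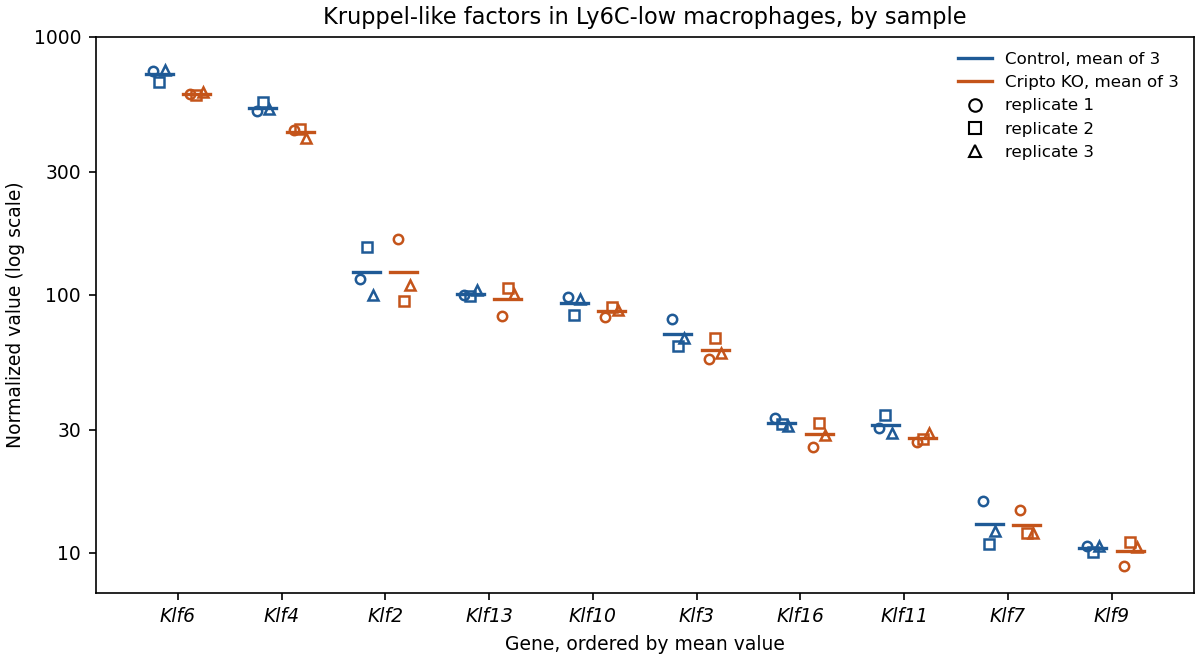
Deposited value (log axis) of each of the 10 Kruppel-like factors in the 3 Control and 3 Cripto KO libraries, with a horizontal bar at each group mean. The Control points of Klf4 and Klf6 lie above every Cripto KO point, and those of Klf2 are interleaved with them.

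Klf4 (ENSMUSG00000003032, chr4:55527143-55532466, GRCm38, minus strand) and Klf6 (ENSMUSG00000000078, chr13:5861482-5870394, plus strand) were the members with separate groups and the largest differences. Klf4 was 514, 556 and 524 in the Control libraries and 433, 440.4 and 406 in the Cripto KO libraries. Every Control value was above every Cripto KO value. The geometric mean (the mean taken on the log scale) of Cripto KO was 80.3% of that of Control (95% interval 72.3 to 89.0). This is a log2 difference of 0.32 ± 0.07 (SE, n = 3 and 3). The spread within groups was small, with coefficients of variation of 4.19% in Control and 4.30% in Cripto KO, and the 5885 to 7351 reads behind each value give a counting error of 1.17 to 1.30%.

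Klf6, an immediate-early gene in many cell types, was 738, 668 and 742 in Control, against 597, 593 and 609 in Cripto KO. Here too no value of one group reached the other. The geometric mean of Cripto KO was 83.8% of that of Control (95% interval 75.4 to 93.3), a log2 difference of 0.25 ± 0.07 (SE, n = 3 and 3). The 3 Cripto KO libraries were close to each other, with a coefficient of variation of 1.36%, and the Control libraries varied by 5.81%. Without Control 1 the log2 differences of Klf4 and Klf6 were 0.34 and 0.23, and without Control 2 they were 0.28 and 0.30.

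In the fit across all 13008 genes with limma, the Benjamini-Hochberg adjusted p was 0.235 for Klf4 and 0.407 for Klf6, so neither passed 0.05. The unadjusted values were 0.000977 and 0.0046. In that fit 0 of the 10 members passed an adjusted p of 0.05, the background being 17 of all genes (0.131%), and 2 had an unadjusted p under 0.05, the background being 8.59%. Both were higher in Control, as were 4.6% of all genes, while 3.99% had such a p with Cripto KO higher. edgeR on the recovered reads gave the same member counts, 0 and 2, with backgrounds of 0.131% and 8.47%. DESeq2 called 1 member, Klf4, with an adjusted p of 0.0257 (background 0.546%), and gave 2 members an unadjusted p under 0.05 (background 5.83%). Whether Klf4 passes the threshold therefore depends on the tool. Of the 7730 genes with a mean value of at least 10, 4.45% had a log2 difference at least the size of that of Klf4, and 8.31% at least that of Klf6.

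**Figure D2:**
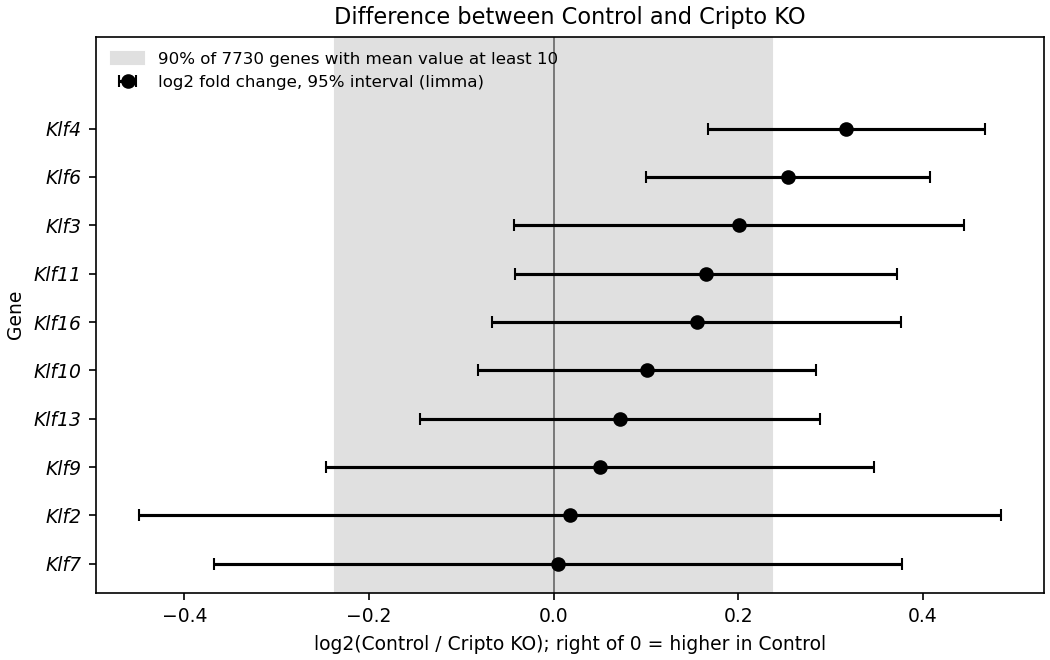
log2 of Control over Cripto KO for each member, with 95% confidence intervals from limma, against a grey band that holds 90% of the 7730 genes of mean value at least 10. The intervals of Klf4 and Klf6 lie above 0 and those of the other 8 members include 0.

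Klf2 (ENSMUSG00000055148, chr8:72319033-72321656, plus strand) is the member closest to Klf4 in its known functions, and its pattern was different. It was 116, 153 and 99.8 in Control, against 164, 94.96 and 109 in Cripto KO. The groups overlapped in full, with the highest and the lowest value of all 6 libraries both in Cripto KO. The arithmetic means were 123 ± 27.6 and 123 ± 36.5 (SD, n = 3 each). By geometric means the Cripto KO level was 98.8% of Control. The 95% interval of 71.5 to 136 includes decreases and increases of the size seen for Klf4. Klf2 was the most variable member: its within-group SD of 0.37 on the log2 scale was above that of 97.8% of the 7730 genes of mean value at least 10. The 1222 to 2585 reads per library give a counting error of at most 2.86%. The log2 difference of Klf2 was 0.02 with all libraries, 0.05 without Control 1 and -0.15 without Control 2.

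Klf7 (ENSMUSG00000025959, chr1:64029447-64122282, minus strand), the remaining member of the activating group, was 15.9, 10.8 and 12.2 in Control, against 14.6, 11.9 and 11.9 in Cripto KO. The groups overlapped, and the Cripto KO level was 99.7% of Control (95% interval 77.0 to 129). The log2 difference of Klf7 was 0.005 with all libraries, -0.15 without Control 1 and 0.13 without Control 2. Its value is uncertain, because 38.7% of its 31-base words are shared with the antisense RNA Gm26649, and the strand setting of the counting is not given in the sources used here.

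**Figure D3:**
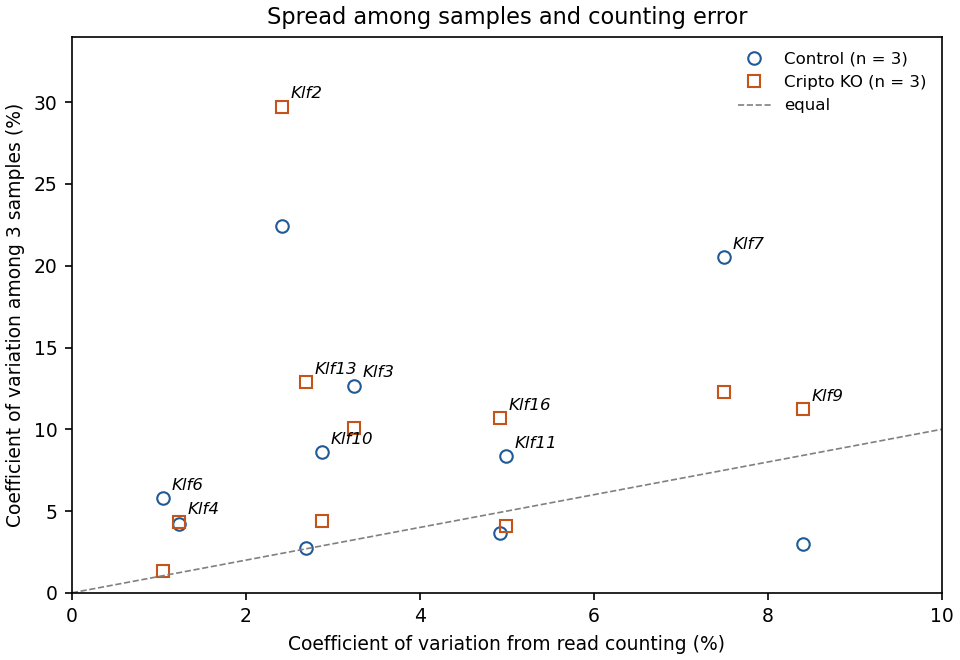
Coefficient of variation among the 3 libraries of each group against the coefficient of variation from read counting, for the 10 members, with a dashed line where both are equal. Klf2 lies highest, at 22.4% in Control and 29.7% in Cripto KO. Klf4 and Klf6 lie furthest to the left, with the smallest counting error.

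Klf3 (ENSMUSG00000029178, chr5:64803388-64832901, plus strand) represents the CtBP-binding repressors. It was 80.6, 63.2 and 68.1 in Control, against 56.4, 68.3 and 59.3 in Cripto KO. The Control 1 value was the highest of the 6, and the other Control values fell among those of Cripto KO. The log2 difference was 0.20 ± 0.11 (SE) with all libraries and 0.10 without Control 1. The other repressors of this group were barely expressed: Klf8 ranged from 0.921 to 1.90 (14 to 27 reads) and Klf12 from 1.90 to 2.44, with overlapping groups for both. Klf1, Klf5, Klf14, Klf15 and Klf17 were not among the symbols of the deposited table, so they were not analysed here.

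Among the Sin3-binding members, Klf10 and Klf11 are known as genes induced early by TGF-beta, and Cripto is a co-receptor for ligands of the TGF-beta family. Klf10 (ENSMUSG00000037465, chr15:38291463-38300706, minus strand) was 98.2, 83.7 and 96.8 in Control, against 82.2, 89.5 and 87.5 in Cripto KO. Klf11 (ENSMUSG00000020653, chr12:24651274-24662789, plus strand) was 30.6, 34.3 and 29.3 in Control, against 27.0, 27.7 and 29.2 in Cripto KO. Klf10 overlapped between the groups, at 93.2% of Control (95% interval 82.1 to 106). Klf11 did not overlap, but only by the narrow gap between 29.3 and 29.2, and when the libraries were scaled by their total reads its groups overlapped. Its Cripto KO level was 89.2% of Control (95% interval 77.3 to 103). The log2 differences of Klf10 and Klf11 were 0.10 and 0.16 with all libraries. Without Control 1 they were 0.06 and 0.18, and without Control 2 they were 0.17 and 0.10.

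Klf13 (ENSMUSG00000052040, chr7:63886351-63938915, minus strand), best known in lymphocytes as a regulator of chemokine expression, was 100.2, 98.7 and 104 in Control, against 82.6, 106 and 101 in Cripto KO. Only Cripto KO 1 lay below Control, and without that library the log2 difference turned from 0.07 to -0.037. Klf9 (ENSMUSG00000033863, chr19:23141226-23168134, plus strand), a target of glucocorticoid and thyroid hormone receptors, was 10.6, 10.1 and 10.7 in Control, against 8.86, 11.0 and 10.6 in Cripto KO. It behaved alike, with a log2 difference of 0.05 that became -0.045 without Cripto KO 1. Klf16 (ENSMUSG00000035397, chr10:80567124-80577321, minus strand) was 33.2, 31.4 and 31.1 in Control, against 25.7, 31.9 and 28.6 in Cripto KO, with overlapping groups. Its Cripto KO level was 89.8% of Control (95% interval 77.0 to 105).

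Across the list, 3 members had groups that did not overlap with Control higher (Klf4, Klf6 and Klf11), where 7.93% of the 12995 genes with any read did so, and 0 members had Cripto KO higher, where 6.44% did. All 10 members had a positive log2 difference, compared with 52.6% of all genes, and their median was 0.13 against 0.01. The median absolute difference was 0.13 for the members and 0.12 for all genes, a set that includes many of lower value than any member. Among the 7730 genes of mean value at least 10, the 90th percentile of the absolute difference was 0.237. Klf4 (0.32) and Klf6 (0.25) were above it and the other members below. The signs of the smallest differences were not stable, with 9 positive under quantile normalization, edgeR or DESeq2, 8 when scaled by total reads, and 8 to 10 when any 1 library was left out. Nothing is read from these counts about the family, since its members were listed with this contrast known.

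**Figure D4:**
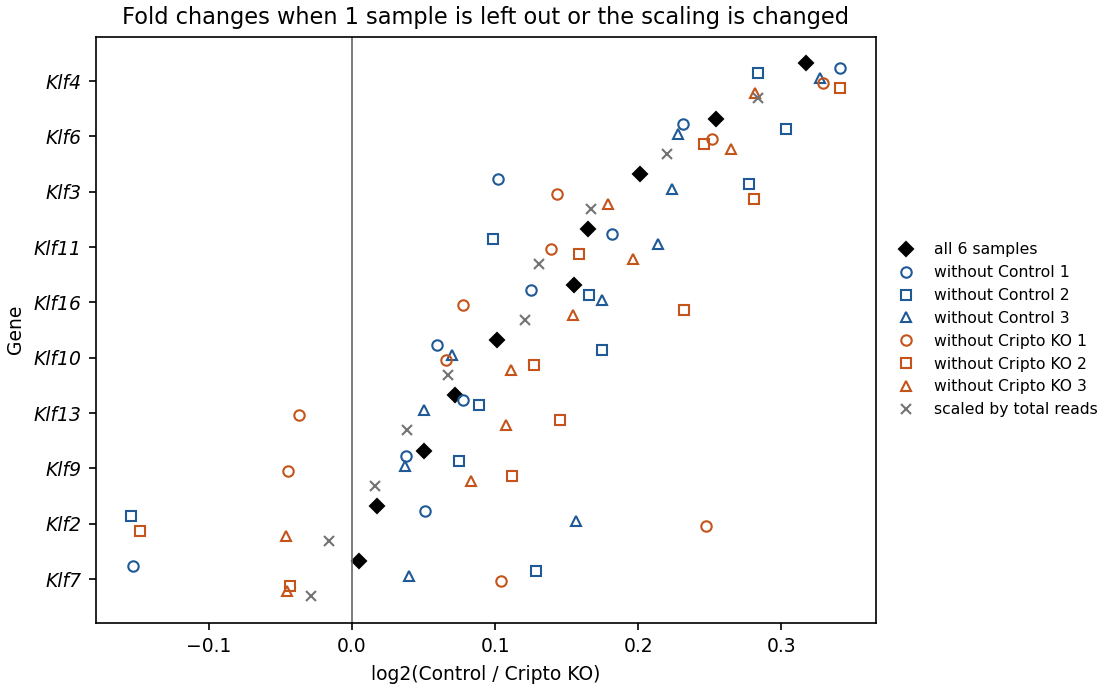
log2 of Control over Cripto KO for each member with all libraries and with each library left out in turn. Klf4 stays between 0.28 and 0.34 and Klf6 between 0.23 and 0.30, whereas Klf2 ranges from -0.15 to 0.25 and Klf7 from -0.15 to 0.13.

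Compared per kilobase of merged exon, Klf4 (mean value 157 per kb) and Klf6 (149.9 per kb) led the family and their ranges over the 6 libraries overlapped. Klf2 followed at 66.5 and Klf10 at 21.4, each separate from its neighbours in the order. Klf13 (13.1) and Klf16 (11.3) overlapped each other, as did Klf11 (6.84) and Klf3 (5.87), and at the bottom Klf9 (2.14) and Klf7 (1.59). With the longest transcript in place of merged exons Klf3 moved from the eighth to the sixth place, at 12.6 per kb.

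The summed value of the 10 members was 1737, 1710.5 and 1718 in Control, against 1492, 1475 and 1452 in Cripto KO. The sum follows its most abundant members, as Klf4 and Klf6 made up 71.6 to 73.7% of it in Control and 69.1 to 70.1% in Cripto KO. As a share of all reads the members took 0.165 to 0.167% in Control and 0.142 to 0.15% in Cripto KO. Cripto KO 1 had the lowest value of the 6 for 6 of the 10 members, yet the highest for Klf2, and with scaling by total reads it was lowest for 4. Control 1 was highest for 4 members.

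**Figure D5:**
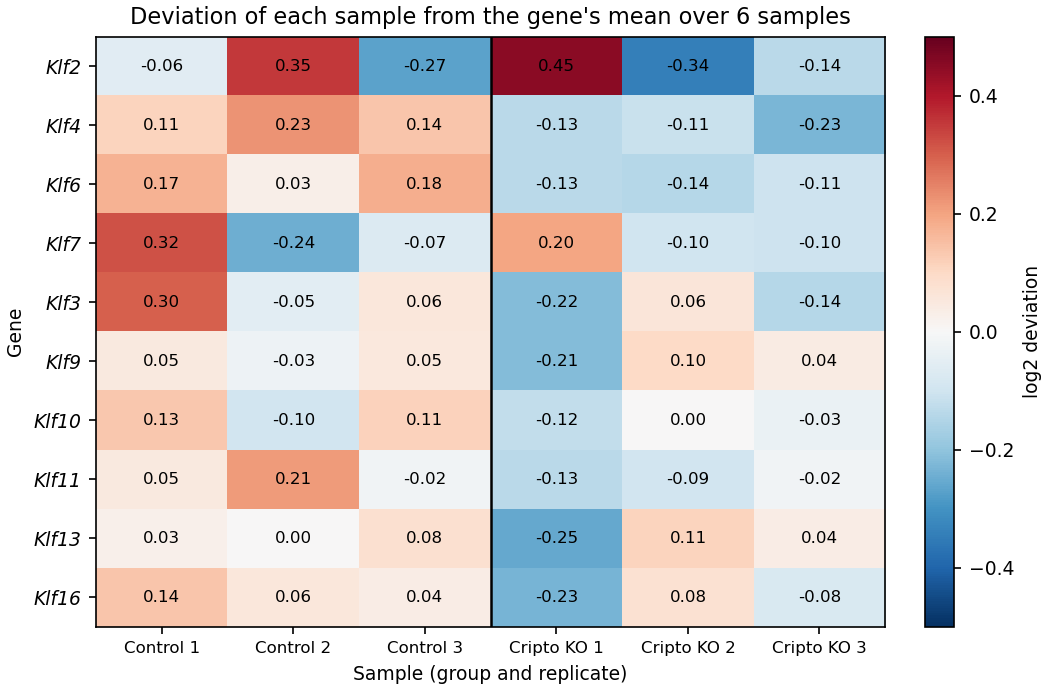
Deviation of each member in each library from its own mean over the 6 libraries, on the log2 scale. Klf4 and Klf6 are above their mean in all 3 Control libraries and below it in all 3 Cripto KO libraries, and Klf2 is highest in Cripto KO 1.

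The genes whose log2 values followed Klf4 and Klf2 most closely over the 6 libraries, among the 7730 of mean value at least 10, are named as a description. For Klf4 they were Cyp4f18 (Pearson r 0.996), an enzyme that inactivates leukotriene B4, Prpsap2 (0.992) and Golt1b (0.99), and 162 genes reached 0.9. For Klf2 they were Sumf1 (0.99), an activator of sulfatases, Kifap3 (0.984) and Hes1 (0.977), a Notch target whose own value ranged from 16.8 to 52.0, and 60 genes reached 0.9. Each r rests on 6 points from the same libraries, and nothing is read from it about shared control.

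The pathway genes around the family were examined in 7 lists of which 80 genes were measured. Of these, 0 passed an adjusted p of 0.05 with limma (0.131% of all genes), edgeR (0.131%) or DESeq2 (0.546%). With shares this low, a count of 0 says little about the lists. The related Sp factors, which bind the same GC-rich elements, were close between groups. Sp1 was 28.0 ± 3.71 in Control and 30.1 ± 1.44 in Cripto KO (SD, n = 3 each), and Sp3 was 67.5 and 66.0. Sp2 was 13.6 and 12.8, and Sp4, the lowest, had a log2 difference of 0.15, with overlapping groups for all 4.

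Of the 10 genes of the ERK5-MEF2 axis, which induces Klf2 and Klf4, 1 had an unadjusted p under 0.05 with limma (8.59% of all genes). With edgeR (8.47%) or DESeq2 (5.83%) 0 had one. The gene named by limma, the transcription factor Mef2a, was 165 ± 1.17 in Control and 149 ± 6.23 in Cripto KO (log2 difference 0.15, limma adjusted p = 0.540). Its groups did not overlap, with Control higher, as for 7.93% of genes with any read. Mef2d was 162 ± 24.5 and 165 ± 12.2, and Hdac5, which represses MEF2 proteins, was 260 ± 45.8 and 284 ± 31.3. The list median was 0.03.

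None of the 11 corepressors and coactivators had an unadjusted p under 0.05 with limma (8.59% of all genes), edgeR (8.47%) or DESeq2 (5.83%). Their median log2 difference was 0.03. Ctbp1, the partner of Klf3, was 125 in Control and 124 in Cripto KO, Sin3b was 113 and 110, and the acetyltransferase gene Ep300 was 53.0 and 50.4. The 4 ubiquitin ligases reported to act on Kruppel-like proteins had 0 such genes as well and a median of 0.04. Wwp1 was 200.2 in Control and 217 in Cripto KO, Itch was 52.0 and 50.9, and Smurf1 was 33.1 and 31.9.

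Among 15 genes reported downstream of Klf2 or Klf4, limma gave an unadjusted p under 0.05 to 1 with Control higher, Cdkn1a (4.6% of all genes). It gave one to 1 with Cripto KO higher, Pparg (3.99%). In either direction edgeR gave 2 (8.47% of all genes) and DESeq2 gave 1 (5.83%). The cell cycle inhibitor Cdkn1a was 704 ± 74.5 in Control and 586 ± 74.0 in Cripto KO, a log2 difference of 0.27 (limma adjusted p = 0.540). Mrc1, which encodes the mannose receptor CD206 of alternatively activated macrophages, was 590.1 ± 13.9 and 647 ± 30.5, without overlap (log2 difference -0.13), with a limma adjusted p of 0.640 and an unadjusted one above 0.05. Pparg, a lipid-sensing receptor gene of the same state, was 32.9 ± 1.94 and 38.2 ± 3.19, also without overlap (log2 difference -0.22, limma adjusted p = 0.559), and is named here after its values were seen. Cd14 was 3258 ± 200.2 and 3161 ± 463. The list median was 0.02, with 8 of 15 values positive. Groups did not overlap for 0 of the 15 with Control higher (7.93% of genes with any read) and for 2 with Cripto KO higher (6.44%).

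The 18 immediate-early genes, transcribed within minutes of a stimulus and during tissue dissociation, ranged from a mean value of 2.63 for Egr3 to 4119.7 for Junb, and summed to 18424 to 19228 in Control and 18023 to 18795 in Cripto KO. By limma 2 had an unadjusted p under 0.05 with Control higher (4.6% of all genes) and 1, Btg2, with Cripto KO higher (3.99%). The count in either direction was 3 by edgeR (8.47% of all genes) and 3 by DESeq2 (5.83%). Their median was 0.04. Groups did not overlap for 4 of the 18 with Control higher (7.93% of genes with any read) and 1 with Cripto KO higher (6.44%), which was Junb at 4028 ± 139 and 4212 ± 29.0. The mRNA-destabilizing factor Zfp36, with Control higher and no overlap, was 2567 ± 41.7 and 2422 ± 71.0, and Jund was 2069 ± 192 and 1947 ± 87.3. The other genes with Control higher and no overlap, named after their values were seen, were Fosb (log2 difference 0.13), Atf3 (0.24) and Ier5 (0.18). Klf4 was at 0.32 and Klf6 at 0.25. The largest differences the other way, also named after their values were seen, were Myc (-0.27) and Btg2 (-0.25), both with overlapping groups. A positive log2 difference was found for 12 of the 18 genes, compared with 52.6% of all genes. The part of an immediate-early response in the values of Klf4 and Klf6 was not tested.

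Of 16 TGF-beta and SMAD genes, which bear on Klf10 and Klf11, 0 had an unadjusted p under 0.05 with limma (8.59% of all genes), edgeR (8.47%) or DESeq2 (5.83%). The list median was 0.09. Tgfb1 was 478 ± 33.5 in Control and 445 ± 9.49 in Cripto KO, the SMAD target Id2 was 399 ± 32.4 and 401 ± 22.9, and the corepressor Tgif1 was 342 ± 46.1 and 326 ± 45.3.

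Klf2 and Klf4 are also abundant in endothelial cells, and Klf4 and Klf6 in fibroblasts, so marker lists for those cells are given beside them. The 9 endothelial markers, none at 0, summed to 48.3 to 60.3 in Control and 51.0 to 58.6 in Cripto KO. Of these, 1 had an unadjusted p under 0.05 by limma (8.59% of all genes), 1 by edgeR (8.47%) and 1 by DESeq2 (5.83%). By limma it was Tie1, a receptor of endothelial cells, which is named after its values were seen. Tie1 was higher in Cripto KO without overlap (log2 difference -0.52), as were 6.44% of genes with any read. The part of endothelial RNA in the values of Klf2 and Klf4 was not tested. The 7 fibroblast markers, none at 0, summed to 473 to 501 in Control and 558 to 610.0 in Cripto KO. All 7 had a negative log2 difference, where 52.6% of all genes had a positive one. Groups did not overlap for 4 of the 7 with Cripto KO higher (6.44% of genes with any read) and for 0 with Control higher (7.93%). Limma gave an unadjusted p under 0.05 to 5 of the fibroblast markers (Pdgfra, Col1a1, Col1a2, Col3a1 and Dcn), where 3.99% of all genes had one with Cripto KO higher. It was given to 5 by edgeR (8.47% of all genes in either direction) and to 3 by DESeq2 (5.83%). The part of fibroblast RNA in the values of Klf4 and Klf6 was not tested. The 6 muscle fiber markers measured, none at 0, summed to 30.4 to 55.6 and 18.7 to 49.7. Of these, 3 had an unadjusted p under 0.05 by limma, Ckm, Tnnt3 and Tnnc2, where 4.6% of all genes had such a p with Control higher. All 3 had higher means in Control with overlapping groups. By edgeR 1 muscle fiber marker had such a p (8.47% of all genes in either direction), and by DESeq2 2 had one (5.83%). The part of muscle fiber RNA in the values of Klf4 and Klf6 was not tested. The 6 neutrophil markers measured summed to 106 to 115 and 101 to 111, with S100a9 and Retnlg at 0 reads in all libraries. The 5 markers of Ly6C-high monocytes summed to 59.0 to 93.7 and 72.2 to 97.2.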

How the data were processed

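RNA-seq was made from 6 libraries of sorted muscle macrophages, 3 Control and 3 Cripto KO, with the NEBNext Ultra RNA kit. The authors trimmed reads with Cutadapt 1.7.1, counted them against the GRCm38 transcriptome (Ensembl release 91) with RSEM 1.2.20 and normalized with limma, and the submitters' processing notes also name FastQC and edgeR. The deposited values are a signal on a linear scale, reads plus 0.5 per 1000000 of a normalized library size. Dividing by the value of 1 read gave whole reads for 78048 of 78048 values (100%, within 0.01 read), and edgeR's quasi-likelihood test on those reads called 17 genes.

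The main test was limma 3.58.1 (moderated test with an intensity trend) on log2 values without a pseudocount or filter, Control against Cripto KO, with Benjamini-Hochberg adjustment over 13008 genes. Alternatives were pseudocounts of 0.5 and 1, a mean filter of 1, quantile normalization, edgeR 4.0.16 (TMM), DESeq2 1.42.0, a replicate block, leaving out each library and, chosen after seeing the data, scaling by total reads. R 4.3.3 and Python 3.11.15 were used, and the tests were tried on simulated data. Log2 differences are Control over Cripto KO. Percentages of Control and their intervals are taken from these differences, so they compare geometric means. Counting errors cover counting only, since reads carry no molecular identifiers. Exon lengths were taken from GENCODE M21 and promoters from RefSeq.

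The members and lists were chosen with earlier results of these data known. The genes named are every member, every other Klf or Sp gene measured, the 3 genes of highest mean in each list, those passing the adjusted p, and the 3 genes most like Klf2 and Klf4. Pparg, Fosb, Atf3, Ier5, Btg2, Myc, Egr3, Tie1, Xist, Lyz2 and the cell type markers fall outside this rule and were named after their values were seen. The lymphocyte marker list is not reported here.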

Additional observations from a re-analysis of the deposited data

How the results depend on the processing

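The count of genes with an adjusted p under 0.05 by limma, 17 over all 13008 genes, was 15 and 14 with pseudocounts of 0.5 and 1, 19 with the mean filter or total-read scaling, 17 with edgeR, 6 after quantile normalization, 71 with DESeq2 and 5 to 31 when a library was left out (31 without Control 1, 5 without Cripto KO 2, 7 without Control 3 or Cripto KO 3, 10 without Cripto KO 1). The member count was 0 throughout except with DESeq2, which called 1 (Klf4, log2 difference 0.31). The adjusted p of Klf4 ranged from 0.0257 to 0.752 over the 14 alternatives and its log2 difference from 0.27 to 0.34. The replicate block gave 2 genes, the lowest adjusted p of a member then being 0.432. Libraries with the same number deviated from their group means with correlations of -0.495, -0.05 and -0.244, and libraries with different numbers with -0.424 to 0.435. Because the deviations of 3 libraries cancel within each group, these values cannot decide whether the numbers pair the libraries.

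The sign of Klf2 (0.02) turned under quantile normalization (-0.027), total-read scaling (-0.016), edgeR (-0.0115) and DESeq2 (-0.0092), and that of Klf7 under total-read scaling (-0.029); the cause was not tested. When a library was left out, signs turned for Klf2 (-0.15 to 0.25), Klf7 (-0.15 to 0.13), Klf9 (-0.045 to 0.11), Klf13 (-0.037 to 0.15) and Klf8 (-0.0913 to 0.43). The 3 libraries a group limit precision: the 95% interval of Klf2, the widest of the 10, ran from 71.5 to 136% of Control.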
